A study of Homo sapiens with 12 samples.

Results

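The BCL2 family of apoptosis regulators was followed by mRNA sequencing through the development of lapatinib resistance in BT474 cells. The 10 members were listed by symbol, and all were found among the 26485 genes measured: the survival factors BCL2, BCL2L1 and MCL1, the pore-forming effectors BAX and BAK1, and the BH3-only members BCL2L11, BBC3, PMAIP1, BIK and BMF. All 10 were also among the 13794 genes that reached a value of 1 in 3 or more libraries, and only those genes were tested. BT474 is a widely used human line of HER2-positive breast carcinoma, labelled wild type in every library, and lapatinib inhibits the HER2 and EGFR kinases. The 4 groups, with 3 libraries each, were Control (day 0), drug-tolerant persisters (DTP, day 9), drug-tolerant expanded persisters (DTEP, month 6) and long-term resistant cells (LR, month 9). DTP, DTEP and LR cells had been kept in 1 µM lapatinib. Control libraries carry the same treatment label, but were taken as untreated because their titles say day 0. All groups derive from 1 cell line, the DTP group holds the few cells still present at day 9, and the libraries of a group came from plates kept in parallel that the authors describe as technical replicates, so the SDs and p-values measure the spread between these libraries only.

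BCL2 family proteins set whether the outer mitochondrial membrane is opened. The survival members BCL2, BCL-XL (the product of BCL2L1) and MCL1 bind and hold the effectors BAX and BAK1 and the BH3-only proteins, and BH3-only proteins that are free either activate the effectors or occupy the survival members. Once BAX or BAK1 form pores, cytochrome c is released and caspases are activated. In HER2-dependent breast cancer cells, HER2 and ERK signalling is known to restrain the BH3-only protein BIM (the product of BCL2L11), largely after its transcription, and several BH3-only genes are known transcriptional targets of FOXO factors or p53.

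Depth was 16383363 to 25030482 assigned reads per library, so that 1 read was worth 0.0412 to 0.0576 normalised read counts, the scale of all levels below. Where a gene had no read in a library, counting error alone allows a level of up to 3 reads, or 0.124 to 0.173. The labelled cell type was checked against its markers. The summed level of 5 genes of the 17q12 region that is amplified in BT474 (ERBB2, GRB7, STARD3, PGAP3, MIEN1) was 8399 to 9041 in Control and 11638 to 14070 in DTP libraries, but 1618 to 2819 and 1781 to 2230 in DTEP and LR libraries. All 5 were past the adjusted p, and lower, in DTEP against Control and in LR against Control. The sum of 8 genes of the 17q23 and 20q13 regions was 1790 to 1849 in Control libraries and 350 to 397 in LR libraries, and that of 8 luminal markers was 5568 to 5658 in Control libraries and 2125 to 3553 in LR libraries. The luminal genes did not move together, since in LR against Control the means of ESR1 (151 to 0.153), PGR (1179 to 2.45) and CDH1 (1125 to 75.1) were called lower and that of GATA3 (190 to 1251) was called higher. Of 10 markers of other cell types, 8 were below 1 in every library, PTPRC and CD3E (leukocytes) and KRT5 and KRT14 (basal epithelium) among them. The other two were COL1A1, with a mean of 55.3 in Control and 111 in LR libraries (past the adjusted p, higher), and VWF, with 8.09 and 0.118 (called lower). The sum of the 10 was 59.3 to 70.4 in Control and 98.8 to 131 in LR libraries. The part of these shifts in the results below was not tested.

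DTEP replicate 3 stood apart from its group. Across the tested genes, its Pearson's r on the log2 scale was 0.934 to 0.962 with the other DTEP libraries and 0.971 to 0.986 with the LR libraries. DTEP replicate 3 was nearer to the LR mean than to the mean of the other DTEP libraries for 73.3% of the 13794 genes and for 7 of the 10 members. Values without it are given beside the member counts and most member changes that rest on the DTEP group. For genes outside the 10 members they are not given.

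**Figure D1:**
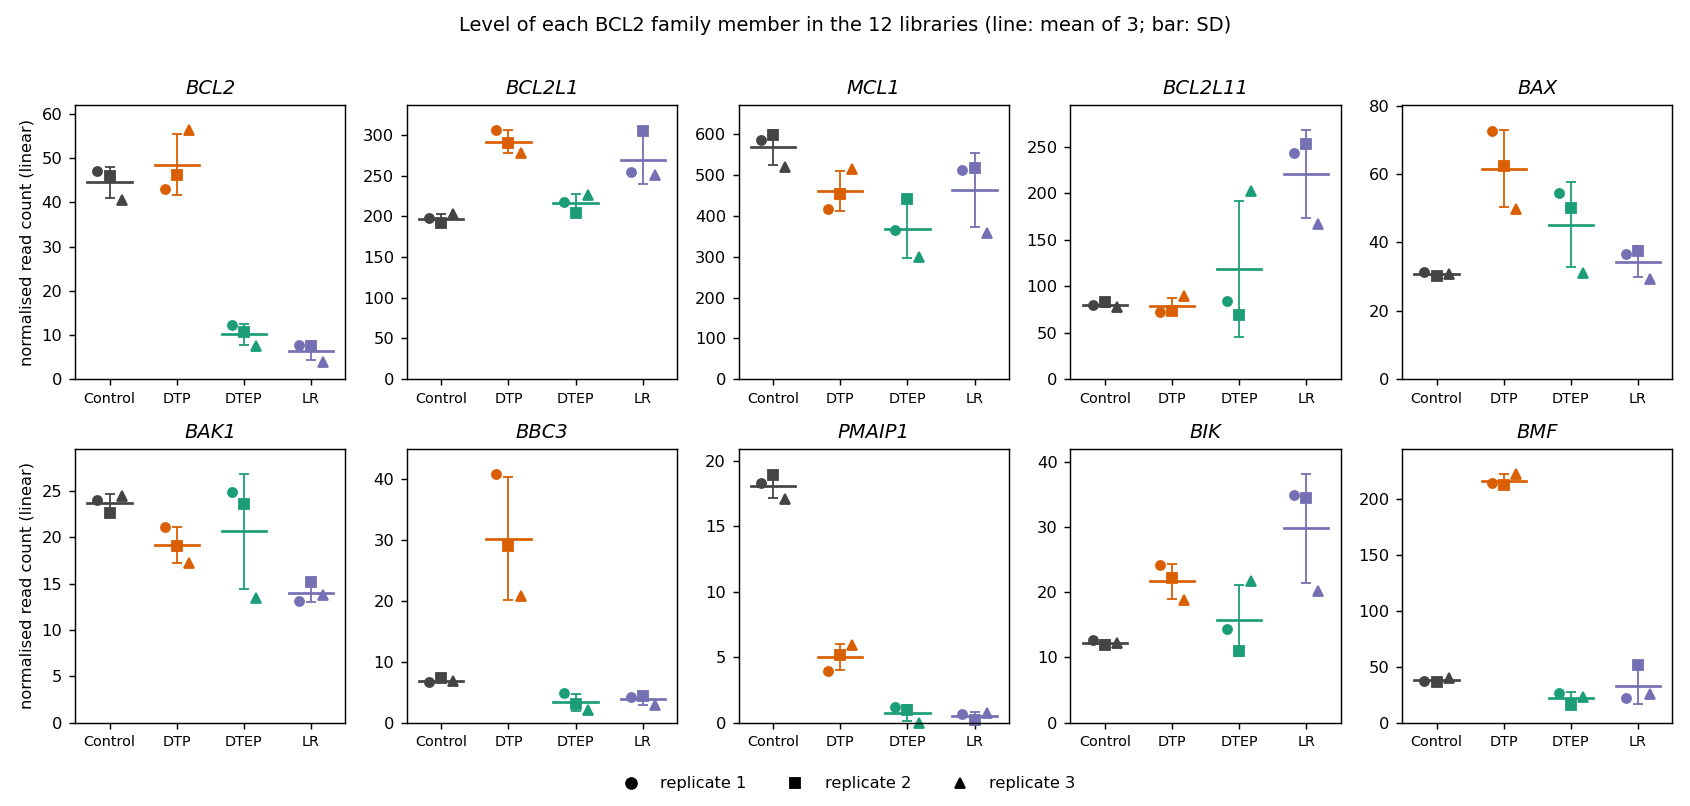
Normalised read count (linear axis from 0) of each of the 10 members in the 12 libraries by group, with the mean of 3 libraries as a line, the SD as a bar and a symbol for each replicate number. BMF and BBC3 are highest in DTP, PMAIP1 is highest in Control, BCL2 is low in DTEP and LR, and DTEP replicate 3 (triangle) lies far from the other DTEP libraries for BCL2L11 (202 against 84.4 and 68.7) and BAK1 (13.5 against 24.8 and 23.6).

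The question of the design is which of these genes change at each step towards resistance. From Control to DTP, 5 of the 10 members rose (BMF, BBC3, BAX, BIK and BCL2L1), where 25.2% of all tested genes did, and 1 fell (PMAIP1), where 28.8% did. From DTP to DTEP, 5 members fell (BMF, BBC3, BCL2, PMAIP1 and BCL2L1), where 32.6% of all genes did, and none rose, where 35.7% did. MCL1 and BAX were also past the threshold, as lower, with median-of-ratios scaling and in DESeq2, which makes 7 members, where 68.1% and 69.1% of all genes passed in either direction. Without DTEP replicate 3 the same 5 members and BIK passed, all lower (background in either direction 71.4%). From DTEP to LR none of the 10 passed in limma, where 3.04% of all genes rose and 4.31% fell, though 5 had an unadjusted p below 0.05 (34.9% of all genes), a pseudocount of 0.1 passed 1 (8.97% of all genes), edgeR passed 1 (12.3%) and DESeq2 passed 3 (22.4%). Passing means an adjusted p below 0.05 in limma over all tested genes. The stricter call, which also needs an absolute log2 change above 2, was met by 1 member from Control to DTP (BMF, background 4.92%), by 3 from DTP to DTEP (BMF, BBC3 and BCL2, background 15.2%) and by none from DTEP to LR (background 0.681%). From DTP to DTEP, BCL2 was not called without DTEP replicate 3 (background 14.3%), while PMAIP1 was called as well in edgeR (background 23.8%), in DESeq2 (23.6%), at a pseudocount of 0.1 or 0.5 and without DTP replicate 1, DTEP replicate 1 or DTEP replicate 2. With an absolute log2 change above 1 instead, 3 members were called from Control to DTP, namely BMF, BBC3 and PMAIP1 (background 25.0%). Successive steps share a group, so that the rise and the fall of a gene around DTP rest on the same 3 DTP libraries. All changes below are on the log2(value + 1) scale, which shrinks changes at low levels, and in bulk RNA fewer cells expressing a gene and less RNA per cell cannot be told apart.

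Set against Control, which both later groups share as their reference, DTEP cells had 5 members lower (PMAIP1, BCL2, BBC3, BMF and MCL1; background 28.7%) and none higher (background 29.5%), while LR cells had 4 lower (PMAIP1, BCL2, BBC3 and BAK1; background 32.6%) and 3 higher (BCL2L11, BIK and BCL2L1; background 30.2%). PMAIP1 and BCL2 were the 2 members called in DTEP against Control (background 10.6%) and in LR against Control (background 12.8%). Without DTEP replicate 3, PMAIP1 alone was called in DTEP against Control (background 10.1%), as the change of BCL2 was then -1.88. In that fit the same 5 members passed as lower, joined by BAX as higher. Of all genes tested there, 8772 of 13758 passed in either direction. Over all 10 members the median log2 change was 0.34 from Control to DTP, -0.47 from DTP to DTEP and 0.25 from DTEP to LR, where the medians over all tested genes were -0.01, 0.08 and -0.07. Against Control the members had a median of -0.44 for DTEP and -0.30 for LR, beside 0.02 and -0.03 over all genes.

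**Figure D2:**
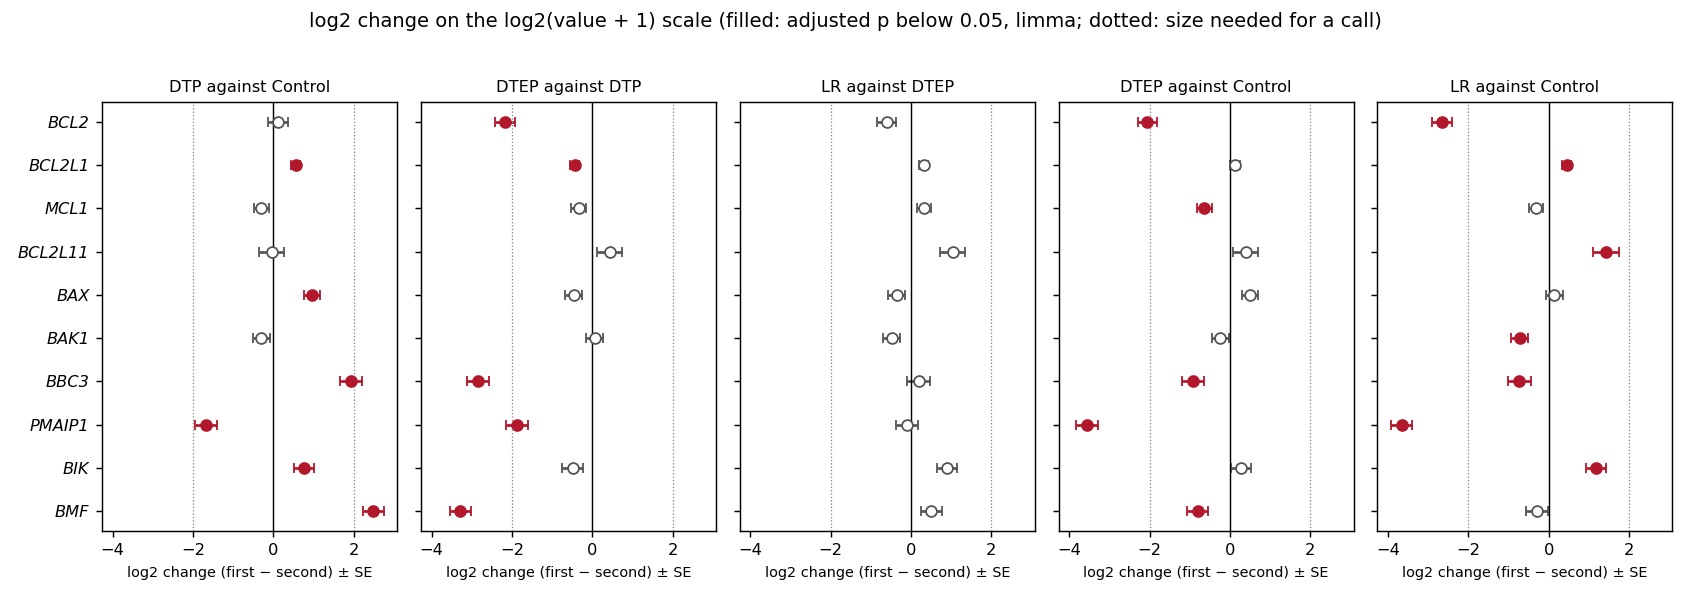
log2 change (x axis, first group minus second, with its SE) of the 10 members in the 5 comparisons, filled where the adjusted p was below 0.05 in limma, with dotted lines at a log2 change of 2 in each direction. BMF is the member farthest to the right in DTP against Control (2.48) and farthest to the left in DTEP against DTP (-3.28), and no member is filled in LR against DTEP.

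BMF, a BH3-only protein that is held on the cytoskeleton in healthy cells through dynein light chain, showed the largest rise from Control to DTP among the 10. BMF lies on chromosome 15, from 40087890 to 40108879 (GRCh38.p14, the assembly of hg38). Its level was 37.4, 36.4 and 39.6 in the Control libraries, 214, 212 and 222 in DTP, 26.1, 16.0 and 23.1 in DTEP and 22.1, 51.2 and 25.3 in LR. The 3 DTP libraries stood far above the 9 others. LR replicates 1 and 3 lay within the DTEP range, and LR replicate 2 lay above the Control range. BMF rose 5.71-fold from Control to DTP (mean 37.8 ± 1.68 to 216 ± 5.63, SD, n = 3; log2 change 2.48, SE 0.26, adjusted p = 1.85e-05, limma). It fell 9.95-fold from DTP to DTEP (to 21.7 ± 5.18; log2 change -3.28, SE 0.26, adjusted p = 5.35e-07, limma) and was then below Control (log2 change -0.80, adjusted p = 0.0205). Without DTEP replicate 3 these changes were -3.34 and -0.85 (adjusted p = 1.67e-06 and 0.0239). In LR (32.9 ± 15.9) it did not pass against Control (log2 change -0.29, adjusted p = 0.352). BMF no longer passed in DTEP against Control without Control replicate 3 (adjusted p = 0.0589) or DTEP replicate 2 (adjusted p = 0.0895), and in LR against Control it passed as lower without LR replicate 2 (log2 change -0.65, adjusted p = 0.0106).

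BBC3 encodes PUMA, a BH3-only protein best known as a p53 target and also induced independently of p53. BBC3 lies on chromosome 19, from 47220824 to 47232860, and 2 microRNA genes overlap it. Its level was 6.67, 7.23 and 6.75 in Control, 40.8, 28.9 and 20.7 in DTP, 4.88, 2.97 and 2.13 in DTEP and 4.22, 4.43 and 2.81 in LR libraries. All DTP libraries were above, and all DTEP and LR libraries below, the Control range. BBC3 rose 4.38-fold from Control to DTP (6.88 ± 0.302 to 30.1 ± 10.1; log2 change 1.93, SE 0.28, adjusted p = 0.000141, limma) and fell 9.06-fold from DTP to DTEP (3.33 ± 1.41; log2 change -2.85, SE 0.28, adjusted p = 2.48e-06), a change of -2.64 without DTEP replicate 3. The deficit against Control in LR (3.82 ± 0.881; log2 change -0.73, adjusted p = 0.0365) did not pass in 7 of the 16 alternatives, namely in edgeR, without a filter on low values and without any 1 Control library, LR replicate 1 or LR replicate 3, and its adjusted p ranged from 0.00563 to 0.125.

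PMAIP1 encodes NOXA, the BH3-only protein that binds MCL1 and promotes its degradation. PMAIP1 lies on chromosome 18, from 59899996 to 59904305. Its level was 18.3, 18.9 and 17.1 in Control and 3.91, 5.18 and 5.93 in DTP libraries. It was 1.15, 0.989 and 0 in DTEP and 0.634, 0.221 and 0.727 in LR libraries, which corresponds to 24, 24 and 0 reads and to 15, 4 and 15 reads. The Control, DTP and later libraries formed 3 levels without overlap, while DTEP and LR overlapped. PMAIP1 fell 3.61-fold from Control to DTP (log2 change -1.68, SE 0.27, adjusted p = 0.000304, limma) and a further 7.03-fold to DTEP (log2 change -1.87, SE 0.27, adjusted p = 5.90e-05). The second change was -1.53 without DTEP replicate 3, the library with no PMAIP1 read. In LR (0.527 ± 0.269) it was 34.3-fold below Control (18.1 ± 0.922; log2 change -3.66, adjusted p = 2.59e-07), the largest difference from Control among the members. At a pseudocount of 0.1 the first of these steps had an adjusted p of 0.0605.

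The promoters of PMAIP1 and BMF, the members with the widest ranges of group means (3.66 and 3.28 on the log2 scale), are shown as 250 bases upstream of a RefSeq start site, 5′ to 3′ on the strand of the gene. Capitals mark exact matches to GGGCGG (the SP1 core) or CCAAT (the NF-Y core) on either strand. For PMAIP1 the window is chr18:59899746-59899995 on the plus strand, and for BMF it is chr15:40108880-40109129 on the minus strand.
PMAIP1: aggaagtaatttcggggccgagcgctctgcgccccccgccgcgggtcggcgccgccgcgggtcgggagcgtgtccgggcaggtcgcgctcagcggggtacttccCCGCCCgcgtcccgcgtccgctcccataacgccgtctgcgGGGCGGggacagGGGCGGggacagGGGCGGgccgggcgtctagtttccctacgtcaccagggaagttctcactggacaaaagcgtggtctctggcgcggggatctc
BMF: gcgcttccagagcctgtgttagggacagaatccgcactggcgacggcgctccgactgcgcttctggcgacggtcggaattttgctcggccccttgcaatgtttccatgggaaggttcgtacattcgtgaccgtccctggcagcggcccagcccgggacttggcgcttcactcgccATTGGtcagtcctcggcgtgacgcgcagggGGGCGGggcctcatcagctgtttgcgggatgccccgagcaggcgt
The PMAIP1 window holds 4 SP1 core matches and the BMF window 1, beside 1 NF-Y core match.

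BCL2L11 encodes BIM, the BH3-only activator whose loss is associated with tolerance of kinase inhibitors. BCL2L11 lies on chromosome 2, from 111120914 to 111168445. Its level was 79.5, 83.2 and 77.7 in Control, 72.3, 73.3 and 89.1 in DTP, 84.4, 68.7 and 202 in DTEP and 243, 253 and 167 in LR libraries. Control, DTP and DTEP replicates 1 and 2 formed 1 range, and DTEP replicate 3 lay within the LR range. BCL2L11 was 2.76-fold higher in LR (221 ± 47.2) than in Control (80.1 ± 2.81; log2 change 1.43, SE 0.31, adjusted p = 0.00180, limma). From Control to DTP the log2 change was -0.04 (SE 0.31, adjusted p = 0.932), and its sign differed between scalings (0.01 with median-of-ratios factors). LR against DTEP gave 1.03 (SE 0.31, adjusted p = 0.0592) with all libraries and 1.499 (adjusted p = 0.000114) without DTEP replicate 3. With all libraries it passed in DESeq2 (0.93, adjusted p = 0.0412). The upstream window of BCL2L11 is shown because it was the only member window with a match to the FOXO motif TGTTTAC, in capitals as its reverse complement (chr2:111120664-111120913, plus strand, with the SP1 and NF-Y cores marked as above).
BCL2L11: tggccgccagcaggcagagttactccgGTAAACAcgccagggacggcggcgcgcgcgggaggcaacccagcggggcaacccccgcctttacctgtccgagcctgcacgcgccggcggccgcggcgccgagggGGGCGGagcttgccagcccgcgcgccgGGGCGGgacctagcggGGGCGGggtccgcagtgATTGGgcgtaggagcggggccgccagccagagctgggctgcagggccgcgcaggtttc

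BIK, a BH3-only protein found mainly at the endoplasmic reticulum and known to be repressed by estrogen in breast cancer cells, rose in DTP and was again above Control in LR. BIK lies on chromosome 22, from 43110750 to 43129712. Its level was 12.6, 11.96 and 12.2 in Control, 24.2, 22.2 and 18.8 in DTP, 14.3, 10.998 and 21.8 in DTEP and 35.0, 34.5 and 20.2 in LR libraries. DTP and LR libraries were all above Control, and DTEP overlapped with Control, DTP and LR. BIK rose 1.77-fold from Control to DTP (log2 change 0.77, SE 0.26, adjusted p = 0.0237, limma), a change that did not pass without any 1 Control library, DTP replicate 1 or DTP replicate 2 (adjusted p = 0.0547 to 0.0828). In LR (29.9 ± 8.39) it was 2.44-fold above Control (12.3 ± 0.349; log2 change 1.18, SE 0.26, adjusted p = 0.00161).

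Among the survival members, BCL2 fell from DTP to DTEP and stayed low in LR. BCL2 lies on chromosome 18, from 63123346 to 63320090. Its level was 47.1, 45.9 and 40.5 in Control, 43.1, 46.2 and 56.4 in DTP, 12.2, 10.6 and 7.58 in DTEP and 7.82, 7.53 and 3.97 in LR libraries. Control and DTP overlapped, as did DTEP and LR, and no library of the first pair of groups came near the second pair. BCL2 did not pass from Control to DTP (log2 change 0.12, SE 0.24, adjusted p = 0.710, limma). It fell 4.80-fold from DTP (48.5 ± 6.95) to DTEP (10.1 ± 2.32; log2 change -2.17, SE 0.24, adjusted p = 6.81e-06). Without DTEP replicate 3 that change was -1.996 (adjusted p = 1.56e-05), which passes but is not called. LR (6.44 ± 2.14) was 6.92-fold below Control (44.5 ± 3.52; log2 change -2.66, adjusted p = 1.38e-06).

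BCL2L1 moved over a narrower range, in the opposite direction to BCL2 in LR cells. BCL2L1 lies on chromosome 20, from 31664452 to 31723963, where 2 long non-coding RNA genes overlap it, and reads were counted with settings that ignore strand by default. Its level was 198, 192 and 203 in Control, 306, 291 and 278 in DTP, 217, 204 and 226 in DTEP and 254, 305 and 251 in LR libraries. All other libraries lay above the Control range, and DTP and LR lay above DTEP. BCL2L1 rose 1.48-fold from Control (197 ± 5.36) to DTP (292 ± 13.9; log2 change 0.56, SE 0.11, adjusted p = 0.00153, limma), fell to DTEP (216 ± 11.1; log2 change -0.43, SE 0.11, adjusted p = 0.00516, or -0.46 without DTEP replicate 3) and was 1.37-fold above Control in LR (270 ± 30.4; log2 change 0.44, adjusted p = 0.00487).

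MCL1, the short-lived survival protein, lies on chromosome 1, from 150574558 to 150579610. Its level was 587, 598 and 520 in Control, 418, 453 and 514 in DTP, 365, 442 and 300 in DTEP and 512, 519 and 358 in LR libraries. All Control libraries were above those of the other groups, which overlapped with each other. With all libraries in limma, the only comparison it passed was DTEP against Control (369 ± 71.3 against 568 ± 42.4; log2 change -0.64, SE 0.18, adjusted p = 0.00997), where the change was -0.50 (adjusted p = 0.0253) without DTEP replicate 3. DTP against Control gave -0.30 (SE 0.18, adjusted p = 0.183) and LR against Control -0.31 (SE 0.18, adjusted p = 0.155). In DTEP against DTP the change of -0.34 (adjusted p = 0.121) passed without DTEP replicate 2 (-0.47, adjusted p = 0.0479), with median-of-ratios scaling (-0.44, adjusted p = 0.0456) and in DESeq2 (-0.45, adjusted p = 0.0309), and a fit of the 6 Control and DTP libraries alone passed MCL1 from Control to DTP (adjusted p = 0.0181).

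Of the effectors, BAX was raised in DTP and BAK1 was lowered in LR. BAX lies on chromosome 19, from 48954875 to 48961798. Its level was 31.3, 30.3 and 30.9 in Control, 72.5, 62.2 and 49.9 in DTP, 54.5, 50.05 and 31.1 in DTEP and 36.5, 37.4 and 29.2 in LR libraries. DTP libraries were above Control, and DTEP overlapped with all other groups. BAX rose 1.997-fold from Control (30.8 ± 0.524) to DTP (61.6 ± 11.3; log2 change 0.96, SE 0.21, adjusted p = 0.00231, limma). Against DTP, DTEP gave -0.46 (SE 0.21, adjusted p = 0.0683), and against Control it gave 0.50 (SE 0.21, adjusted p = 0.0576), which became 0.74 (adjusted p = 0.00200) without DTEP replicate 3. The change from DTP to DTEP passed, as lower, without DTP replicate 3 (adjusted p = 0.0353) or DTEP replicate 1 (adjusted p = 0.0246), with median-of-ratios scaling (-0.57, adjusted p = 0.0289) and in DESeq2 (-0.57, adjusted p = 0.0192).

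BAK1 lies on chromosome 6, from 33572552 to 33580276. Its level was 24.0, 22.6 and 24.5 in Control, 21.1, 19.1 and 17.2 in DTP, 24.8, 23.6 and 13.5 in DTEP and 13.1, 15.2 and 13.8 in LR libraries. LR lay below Control and DTP, and DTEP replicate 3 lay within LR. BAK1 was 1.69-fold lower in LR (14.0 ± 1.04) than in Control (23.7 ± 0.961; log2 change -0.72, SE 0.21, adjusted p = 0.00994, limma). DTP against Control did not pass (log2 change -0.30, SE 0.21, adjusted p = 0.251), except in a fit of those 6 libraries alone (adjusted p = 0.0303).

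In the order of the group means, many neighbours did not differ beyond the spread of their libraries. For BCL2, DTP and Control overlapped at the top and DTEP and LR at the bottom. For BMF and BBC3, DTP stood alone at the top, while LR and DTEP overlapped at the bottom. PMAIP1 ran from Control through DTP to DTEP and LR, of which the last pair overlapped. BCL2L11, BAX and BIK had overlapping libraries at every step of their orders, which began with LR, DTP and LR.

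The count of members that passed from DTEP to LR depended on DTEP replicate 3 and on the tool. With all libraries, none passed in limma on the log2(value + 1) scale. BIK passed, as higher, at a pseudocount of 0.1 (0.94, adjusted p = 0.0488), in edgeR (0.98, adjusted p = 0.0430) and in DESeq2 (0.97, adjusted p = 0.00926). BCL2L11 (0.93, adjusted p = 0.0412) and BCL2L1 (0.36, adjusted p = 0.0202) passed as higher in DESeq2 only. Without DTEP replicate 3, 6 members passed in limma, where 47.5% of all tested genes passed in either direction. BCL2L11 (log2 change 1.499, adjusted p = 0.000114), BIK (1.15, adjusted p = 0.00210) and BCL2L1 (0.35, adjusted p = 0.0236) were higher in LR, and BAK1 (-0.75, adjusted p = 0.00148), BAX (-0.60, adjusted p = 0.0115) and BCL2 (-0.78, adjusted p = 0.0186) were lower, all in limma with the remaining 2 DTEP libraries. In DTEP replicate 3 the levels of BCL2, BCL2L11, BAX, BAK1, BIK and BMF lay inside the LR range, as did those of 50.7% of all tested genes. BIK also passed without LR replicate 3 (1.15, adjusted p = 0.0206), and in DTEP against DTP it passed as lower without DTEP replicate 3 (-0.74, adjusted p = 0.0130). From DTEP to LR, MCL1, BBC3, PMAIP1 and BMF did not pass with or without DTEP replicate 3.

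**Figure D3:**
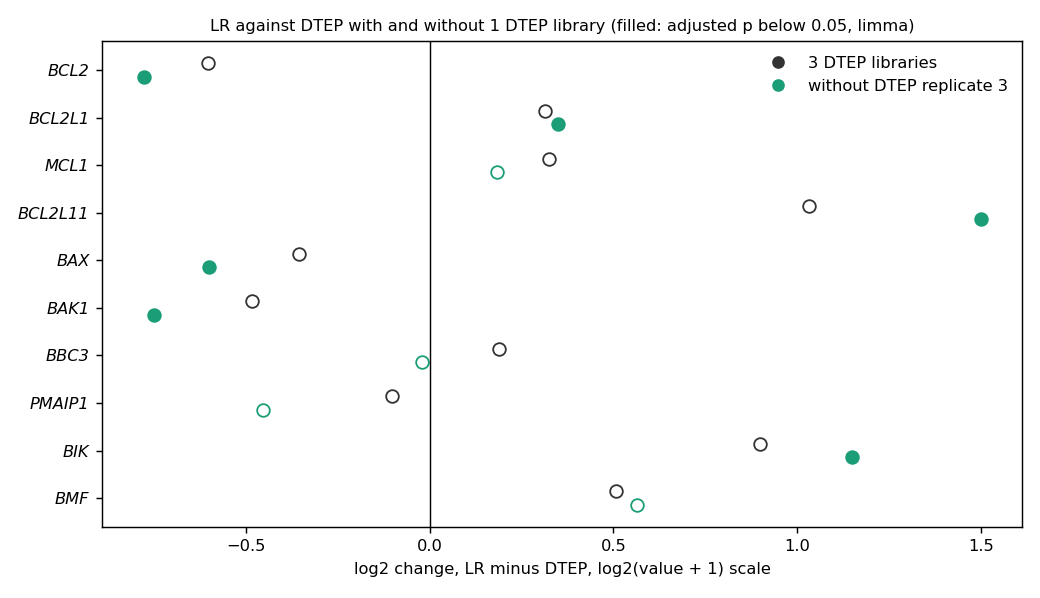
log2 change from DTEP to LR (x axis, LR minus DTEP) of each member with all 3 DTEP libraries (grey) and without DTEP replicate 3 (green), filled where the adjusted p was below 0.05 in limma. None of the grey points and 6 of the green points are filled, the farthest from 0 being BCL2L11 at 1.499.

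Levels were compared between members per kilobase of the MANE Select transcript (GENCODE v44), since longer transcripts collect more reads. MCL1 ranked highest in all 4 groups, from 93.4 normalised read counts per kilobase in DTEP to 144 in Control, and BCL2L1 was next in all 4, from 76.7 in Control to 113 in DTP. Their libraries overlapped in DTP (106 to 130 for MCL1, 108 to 119 for BCL2L1), DTEP and LR, and not in Control. BCL2 ranked 9 of 10 in every group, with 6.47 per kilobase in Control and 0.936 in LR. PMAIP1 went from rank 7 in Control (9.53 per kilobase) to rank 10 in DTP (2.64), DTEP (0.375) and LR (0.278). BMF went from rank 8 in Control (8.06 per kilobase) to rank 4 in DTP (46.0). BCL2L11 was at rank 4 in Control (15.7), rank 7 in DTP (15.4) and rank 3 in LR (43.3), where BAX (43.2) overlapped with it. Dividing by the union of all exons instead kept MCL1, BCL2L1, BCL2 and PMAIP1 at these ranks and put BMF at rank 3 in DTP. It put BCL2L11 at rank 5 in Control, rank 6 in DTP and rank 3 in LR (32.7 per kilobase), where BAX was at rank 5 (13.3).

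**Figure D4:**
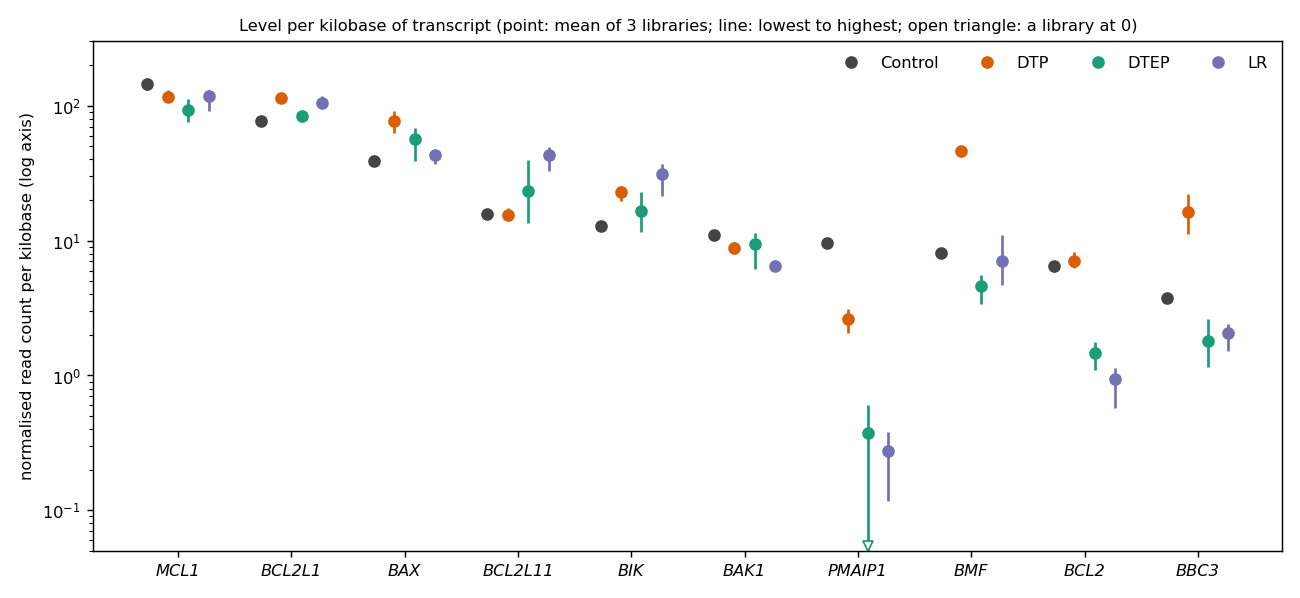
Normalised read count per kilobase of transcript (log axis) of each member, ordered by its Control level, with the mean of 3 libraries as a point and the lowest to highest library as a line. MCL1 and BCL2L1 are highest in every group, and PMAIP1 is lowest in DTP, DTEP and LR, with 1 DTEP library at 0 (open triangle).

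Over the 12 libraries, which share 4 groups, the pair of members with the highest Pearson's r on the log2(value + 1) scale was BBC3 and BMF (r = 0.946), followed by BCL2 and PMAIP1 (r = 0.876). The lowest was BCL2L11 and BAK1 (r = -0.876). These values describe the 12 points. Among all tested genes, those most like PMAIP1 were CPE (r = 0.994), CDHR3 (r = 0.992) and POF1B (r = 0.992), with a CPE mean of 26.1 for Control, then 6.38, 0.747 and 0.322 for the later groups. Those most like BMF were WDR59 (r = 0.987), LINC00847 (r = 0.986) and AMY2B (r = 0.983), the last with 19.2, 85.6, 13.7 and 21.1. Those most like BBC3 were LOC100233156 (r = 0.990), FIZ1 (r = 0.989) and ZNF394 (r = 0.988), the last with 17.95, 49.1, 11.3 and 11.5.

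BCL2 and PMAIP1, which both fell, lie on chromosome 18 with 3.22 Mb between them. The 6 tested genes in the gap had a median log2 change of -0.40 in DTEP against Control, with a range of -1.16 to 1.90, and of -0.20 in LR against Control, with a range of -1.07 to 3.01. The changes of BCL2 and PMAIP1 in those comparisons, -2.06 and -3.56 and then -2.66 and -3.66, lay below that range. In DTP against Control the 6 had a median of -1.12 and a range of -1.54 to -0.28, where PMAIP1 was at -1.68 and BCL2 at 0.12. The 30 tested genes within 1 Mb of BMF had a median of 0.00 in DTP against Control (BMF 2.48) and of 0.64 in DTEP against DTP (BMF -3.28), and the 26 near BBC3 had -0.03 (BBC3 1.93) and -0.11 (BBC3 -2.85). For MCL1, 44 neighbours had a median of 1.06 in DTEP against Control, where MCL1 was at -0.64.

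Other genes of the apoptosis pathway moved in both directions, as did the tested genes as a whole. Of all tested genes, 25.2% rose and 28.8% fell from Control to DTP, and 35.7% rose and 32.6% fell from DTP to DTEP. From DTEP to LR, 3.04% rose and 4.31% fell. The median log2 changes over all tested genes were -0.01, 0.08 and -0.07 in that order. These shares and medians are the background of every list below. Of 16 further BCL2 family and related genes, 13 could be tested, of which 2 rose and 3 fell from Control to DTP, 4 rose and 4 fell from DTP to DTEP, and 0 rose and 1 fell from DTEP to LR (median log2 changes -0.06, -0.16 and -0.32). BNIP3, a hypoxia-induced mitophagy receptor, was the one called, from DTP to DTEP (mean 15.3 to 84.2; log2 change 2.29, SE 0.29, adjusted p = 2.32e-05, limma). The survival gene BCL2A1 had no read in any library, and the BH3-only gene HRK was at a mean of 0.433 or less in each group, both chosen after their values were seen.

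Of 19 caspases and mitochondrial death factors, 7 rose and 5 fell from Control to DTP, 5 rose and 7 fell from DTP to DTEP and none passed in either direction from DTEP to LR. CASP10, an initiator caspase of death receptors, was the one called, from DTP to DTEP (mean 7.13 to 0.773; log2 change -2.24, SE 0.22, adjusted p = 2.95e-06, limma). Of 7 tested caspase inhibitors, 3 fell and 0 rose from Control to DTP, and 3 rose and 1 fell from DTP to DTEP. BIRC5 encodes survivin, which is also a mitotic protein made mainly in dividing cells. Its level was 69.7, 70.5 and 72.6 in Control, 2.30, 2.42 and 1.96 in DTP, 126, 116 and 57.4 in DTEP and 24.0, 19.1 and 40.5 in LR libraries. DTP libraries were far below all others, and LR libraries below DTEP. BIRC5 fell from Control to DTP (log2 change -4.48, SE 0.30, adjusted p = 6.04e-07, limma), rose to DTEP (4.89, adjusted p = 6.77e-08) and fell to LR (-1.79, adjusted p = 0.00848).

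Of 7 genes whose proteins bind, stabilise or degrade members, 5 fell and 0 rose from Control to DTP, and 2 rose and 1 fell from DTP to DTEP. FBXW7, the ubiquitin ligase subunit that targets MCL1 among others, was the one called in DTEP against DTP (mean 19.5 to 182; log2 change 3.17, SE 0.16, adjusted p = 1.65e-08, limma). DYNLL2, the dynein light chain that BMF binds, had means of 401 for Control, 261 for DTP, 65.9 for DTEP and 65.3 for LR. It was called lower in DTEP against Control (log2 change -2.61, adjusted p = 5.04e-08) and in LR against Control (-2.60, adjusted p = 4.21e-08). DYNLL1, the other dynein light chain of the list, had means of 131, 68.3, 284 and 163 for these groups. DYNLL1 passed as lower in DTP against Control (-0.94, adjusted p = 0.00417). It passed as higher in DTEP against DTP (1.97, adjusted p = 9.31e-06) and in DTEP against Control (1.03, adjusted p = 0.00180). In LR against Control DYNLL1 did not pass (0.30, adjusted p = 0.260). Both genes were named after their values were seen.

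BBC3 and PMAIP1 are textbook p53 targets, and BAX is often listed with them. Of 16 other p53 targets, 2 rose and 6 fell from Control to DTP (median log2 change -0.04), 8 rose and 3 fell from DTP to DTEP (0.72) and 1 rose and 0 fell from DTEP to LR (0.05). From DTP to DTEP, where BBC3 and PMAIP1 fell, FDXR, a mitochondrial reductase, was called higher (mean 7.47 to 50.7; log2 change 2.66, adjusted p = 1.37e-06, limma). PHLDA3, an AKT repressor, was called lower (30.3 to 1.34; log2 change -3.86, adjusted p = 1.38e-06), as was CDKN1A, which encodes the cell cycle inhibitor p21 (42.6 to 11.3; log2 change -2.44, adjusted p = 0.0101). CDKN1A was at 21.3, 11.7 and 0.842 in the DTEP libraries, with the lowest value in DTEP replicate 3. Whether CDKN1A would be called without that library was not tested.

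**Figure D5:**
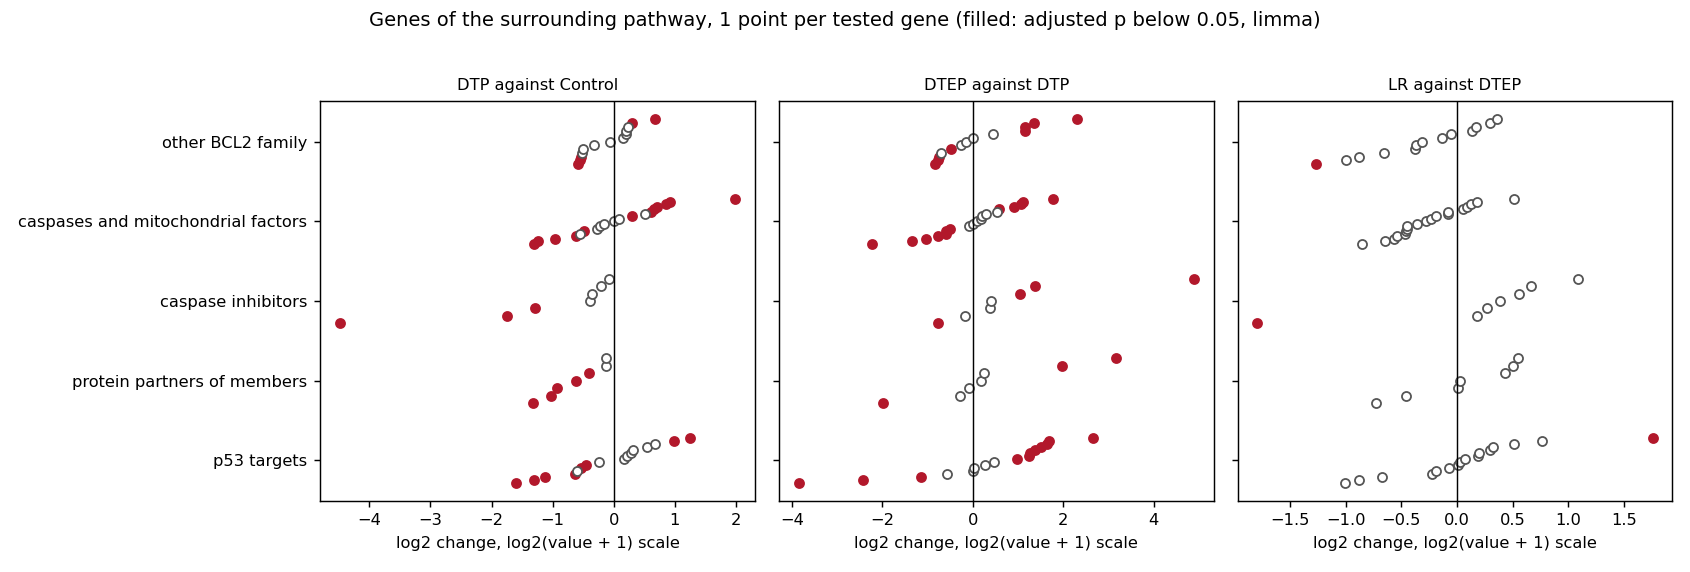
log2 change (x axis, first group minus second; the axis range differs between panels) of each tested gene of 5 lists around the family in the 3 successive transitions, filled where the adjusted p was below 0.05 in limma. In DTEP against DTP all 5 lists have filled points on both sides of 0, and BIRC5 is the outermost point of the caspase inhibitors in all 3 panels.

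RefSeq promoter windows (250 bases before to 50 after the start) were at hand for 8 of the 10 members, with 10 windows in all, since BMF and BCL2L1 had more than 1. None was at hand for MCL1 and BIK. The SP1 core GGGCGG was present in 6 of the 10 windows and in 44.9% of 34943 promoters, and the NF-Y core CCAAT in 5 and in 34.6%. The E-box CACGTG was present in 2 windows, those of BBC3 and BAX, and in 7.23% of promoters. The FOXO motif TGTTTAC was in 1 window, that of BCL2L11 shown above, and in 3.42% of promoters, and neither the CRE motif TGACGTCA (1.84%) nor the E2F motifs TTTGGCGC, TTTCGCGC, TTTCCCGC or TTTGCCGC (together 3.30%) were in any. Both strands were searched for exact letters, and no motif is contained in another. BMF and BBC3, which moved together over the 12 libraries, had an NF-Y core match each in 1 window, and an SP1 core match was found in a BMF window and not in that of BBC3.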

How the data were processed

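The authors' libraries were of stranded mRNA. Reads were mapped to hg38 in Rsubread. They were then counted per RefSeq gene model in that package at its defaults, which ignore strand. The deposited table holds a normalised signal per gene and library, which the authors' notes tie to edgeR. All values were whole multiples of the value of 1 read to within 1.22e-09 reads, and TMM-scaled CPM recomputed from those reads with edgeR 4.0.16 differed from them by at most 4.73e-11 in all 12 libraries. Here log2(value + 1) was tested with limma 3.58.1 (R 4.3.3) in 1 model of the 12 libraries without covariates, with a variance trend, two-sided, and Benjamini-Hochberg adjustment over the 13794 tested genes of each of 5 comparisons. Every adjusted p comes from this test unless another tool is named. The members and gene lists were chosen with earlier results of these data known. Besides the members, up to 3 called genes of each list and transition and the 3 genes most like each of 3 members were named. Alternatives covered pseudocount, filter, trend, libraries fitted, median-of-ratios scaling, edgeR, DESeq2 1.42.0, the replicate block and each library left out. The pipeline was tested on simulated reads with large changes only and the same spread in every library. That test does not cover smaller changes or a library that stands apart from its group. Replicate numbers did not pair the libraries: 2 of 18 same-numbered pairs had deviations correlated above 0.1 (r = -0.44 to 0.36). Positions and promoters are from RefSeq (GRCh38.p14). A planned marker of another cell type is not reported here.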

Additional observations from a re-analysis of the deposited data

How the results depend on the processing

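Of 799 recomputed log2 changes of members, 739 kept their direction and side of the threshold, 27 newly passed it, 15 no longer did and 18 changed sign. The count of members called from Control to DTP was 1, where 678 of all 13794 tested genes were called. It became 3 at an absolute log2 change above 1 (25.0% of all genes). It became 2 at a pseudocount of 0.1 (1181 of all genes) or 0.5 (828), in edgeR (1270) and in DESeq2 (1271). With each library left out it was 1 to 2, the 2 without DTP replicate 3 (811 of 13604 genes). The count past the adjusted p from DTEP to LR, 0, became 1 at a pseudocount of 0.1 (8.97% of all genes) and in edgeR (12.3%), 3 in DESeq2 (22.4%) and 0 to 6 with each library left out (6 without DTEP replicate 3, with 47.5% of all genes). Those called from DTP to DTEP, 3 (15.2% of all genes), became 2 without DTEP replicate 3 (14.3%). PMAIP1 was added to the 3 in edgeR (23.8%), in DESeq2 (23.6%) and at a pseudocount of 0.1 (3142 of 13794 genes) or 0.5 (2532). It was also added without DTP replicate 1 (2034 of 13612 genes), DTEP replicate 1 (2344 of 13756) or DTEP replicate 2 (2017 of 13760). Members called in DTEP against Control were 1 to 2 with each library left out, the 1 without DTEP replicate 3 (10.1% of all genes). In LR against Control 4 were called at an absolute log2 change above 1, for which the share of all genes was not computed.

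Signs turned only for changes that did not pass. BCL2L11 in DTP against Control was 0.00771 with median-of-ratios factors, 0.028 in edgeR and 0.027 in DESeq2, and -0.13 to 0.014 with each library left out. BAK1 in DTEP against DTP was -0.042 with median-of-ratios factors, -0.019 in DESeq2, and -0.090 to 0.33 with each library left out. PMAIP1 in LR against DTEP was 0.17 at a pseudocount of 0.1 and -0.45 to 0.099 with each library left out. The ranges with each library left out were -0.032 to 0.74 for BCL2L11 in DTEP against DTP, -0.071 to 0.70 for it in DTEP against Control, -0.39 to 0.031 for BAK1 in DTEP against Control and -0.020 to 0.43 for BBC3 in LR against DTEP, each low or high end with DTEP replicate 3 left out. The cause was not tested. Median-of-ratios factors moved the median of all genes in DTEP against DTP from 0.08 to -0.03.

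With the replicate number as a replicate block, 6 members passed in DTEP against DTP and 6 in DTEP against Control, where 5 had passed in each (BAX was added, adjusted p = 0.0308 and 0.0257). Of all 13794 tested genes, 9341 and 7929 passed in these comparisons with the block, and 9412 and 8027 without it. From DTEP to LR, the genes past the adjusted p went from 1014 to 655. No other count of members changed under the block, and the numbers are only shared numbers. Depth limits PMAIP1, with 0 to 24 reads in the DTEP and LR libraries.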
